A study of Mus musculus with 12 samples.

Results

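The enzymes that build serine, move single carbons on folate and make asparagine were followed in mammary glands of mice with an inducible FGF receptor. The set was 10 genes named by function: Phgdh, Psat1, Psph, Shmt1, Shmt2, Mthfd1, Mthfd1l, Mthfd2, Aldh1l2 and Asns. These 10 genes were chosen with earlier results of these data known. The count table lists 9 of them among 7318 genes, and Mthfd2 was not analysed here. All mice were female FVB/N animals of 4 weeks that carried both MMTV-Wnt1 and MMTV-iFgfr1, so an active Wnt1 transgene was present in every group, driven like the receptor by a viral promoter active in mammary epithelium. AP20187, a dimerizer that switches the inducible receptor on, or vehicle was given by intraperitoneal injection 6 h before glands 3 to 5 were taken. Digestion took 2 h at 37 °C with collagenase A at 1 mg/ml, and cycloheximide, a blocker of translation elongation, was present at 100 µg/ml. Cells were enriched for epithelium by short spins without a sort. RNA and ribosome footprints, the mRNA fragments that ribosomes shield from nuclease, were counted with AP20187 and with vehicle, 3 libraries in each of the 4 groups. No mice without the inducible receptor received AP20187, so the compound and receptor activation cannot be told apart. Whether a library holds 1 mouse or several pooled is not given in the labels, so the p-values measure the spread between these libraries, which may be partly technical.

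Serine synthesis branches off glycolysis. PHGDH oxidizes 3-phosphoglycerate, PSAT1 transfers an amino group to the product from glutamate, and PSPH removes the phosphate to leave serine. SHMT1 in the cytosol and SHMT2 in mitochondria split serine into glycine and a carbon unit held on folate, and the MTHFD and ALDH1L enzymes pass that unit between oxidation states on its way to purines, thymidylate and methionine. ASNS makes asparagine from aspartate and glutamine. Many of these genes are known targets of ATF4, the transcription factor of the amino acid response.

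Footprint libraries were much shallower than RNA libraries. Counts over the listed genes ran between 94513818 and 237015762 in AP20187 RNA libraries and between 99484140 and 251874393 in vehicle RNA libraries. The footprint libraries held 11018709, 3042199 and 3769368 counts with AP20187 and 1867702, 1772969 and 4007613 with vehicle. A floor of 3 counts equalled at most 0.0322 CPM in RNA, and in footprints it ranged up to 0.92 CPM with AP20187 and up to 1.64 CPM with vehicle. CPM here means counts scaled to a common, TMM-adjusted library size, so every change is relative to the other genes. Fgfr1 RNA, which can include transgene reads, was higher with AP20187 (575 to 1100 CPM) than with vehicle (268 to 366 CPM), and so was Wnt1 RNA (165 to 313 CPM with AP20187, 11.2 to 45.0 CPM with vehicle).

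The RNA of 6 of the 9 enzymes rose with AP20187 and none fell (edgeR quasi-likelihood test, Benjamini-Hochberg adjusted p under 0.05 over 7314 genes). Over all tested genes 12.4% rose and 13.9% fell. The enzymes' median log2 change was 0.71, and that of all tested genes 0.01. In 6 of 9, the same 6 that passed the test, every AP20187 library lay above every vehicle library, which held for 21.9% of all genes.

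Phgdh, the entry enzyme of serine synthesis (chromosome 3, 98313170 to 98339990, minus strand, GRCm38, 533 codons), measured 42.0, 47.2 and 46.3 CPM of RNA with AP20187 and 21.3, 30.6 and 12.05 CPM with vehicle. The AP20187 libraries lay close together and the vehicle libraries were spread, the second being the highest and the third the lowest. The log2 change was 1.08 ± 0.30 (SE; edgeR adjusted p = 0.0333). Phgdh counts carry a limit of their own, because the mouse genome holds many processed copies of this gene. Of the 1572 windows of 28 bases, about the length of a footprint, in its coding sequence, 1394 (88.7%) also occur in annotated transcripts of other genes. These other genes number 27, of which 23 are annotated pseudogenes, and Gm7901 alone holds 72.0% of the windows. Coding bases 238 to 297 of Phgdh are shown beside the matching stretches of Gm7901 (chr8:75711600-75713196, minus strand) and Gm9347 (chr7:136810909-136812515, plus strand), each of which differs from Phgdh at 1 base, and capitals mark the positions that differ in either copy.
Phgdh: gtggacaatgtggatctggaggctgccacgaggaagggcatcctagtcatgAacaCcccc
Gm7901: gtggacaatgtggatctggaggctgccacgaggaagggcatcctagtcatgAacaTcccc
Gm9347: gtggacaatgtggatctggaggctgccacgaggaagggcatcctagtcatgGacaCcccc
A footprint lying wholly in the lower-case run cannot be assigned to any of the 3 by its sequence. The treatment of reads that match several places is not given in the sources used here, so the level of Phgdh is uncertain in both assays.

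Psat1, the aminotransferase of the pathway (chromosome 19, 15904678 to 15947337, minus strand, 370 codons), measured 132, 136 and 131 CPM with AP20187, against 54.3, 98.1 and 30.9 CPM with vehicle. The vehicle libraries took the same order as for Phgdh and none reached the AP20187 range. The log2 change was 1.12 ± 0.35 (SE; edgeR adjusted p = 0.0479).

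Psph, the phosphatase that completes the pathway (chromosome 5, 129765558 to 129787449, minus strand, 225 codons), measured 11.8, 16.5 and 19.3 CPM with AP20187 and 10.9, 25.7 and 10.8 CPM with vehicle. The groups overlapped, the second vehicle library being the highest of all. The log2 change was 0.00 ± 0.37 (SE; edgeR adjusted p = 0.995).

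Shmt2, the mitochondrial hydroxymethyltransferase (chromosome 10, 127517123 to 127522444, minus strand, 504 codons), measured 85.7, 108 and 87.7 CPM with AP20187 and 51.3, 61.0 and 38.1 CPM with vehicle. No vehicle library reached the AP20187 range, and the log2 change was 0.90 ± 0.19 (SE; edgeR adjusted p = 0.0152). Shmt1, its cytosolic counterpart (chromosome 11, 60788104 to 60811718, minus strand, 478 codons), measured 51.4, 74.8 and 59.0 CPM with AP20187 and 54.0, 61.7 and 47.3 CPM with vehicle. Its groups overlapped, with a log2 change of 0.18 ± 0.18 (SE; edgeR adjusted p = 0.466).

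Of the folate enzymes, Mthfd1, the cytosolic protein with 3 folate-interconverting activities (chromosome 12, 76255298 to 76319803, plus strand, 935 codons), measured 82.7, 104 and 95.2 CPM with AP20187 and 59.2, 63.8 and 47.4 CPM with vehicle. Its log2 change was 0.73 ± 0.16 (SE; edgeR adjusted p = 0.0163). Mthfd1l, the mitochondrial formate-producing synthetase (chromosome 10, 3973118 to 4167081, plus strand, 977 codons), measured 32.2, 29.3 and 29.8 CPM with AP20187 and 19.9, 19.9 and 16.1 CPM with vehicle. It had the tightest AP20187 libraries of the folate enzymes, and its log2 change was 0.71 ± 0.16 (SE; edgeR adjusted p = 0.0181). Aldh1l2, the mitochondrial enzyme that oxidizes formyl-folate to carbon dioxide (chromosome 10, 83487450 to 83534140, minus strand, 923 codons), measured 32.9, 31.3 and 39.0 CPM with AP20187 and 25.6, 23.8 and 20.4 CPM with vehicle. The groups of all 3 folate enzymes were apart, that of Aldh1l2 by the smallest log2 change of the 6 that passed, 0.56 ± 0.17 (SE; edgeR adjusted p = 0.0404).

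Asns (chromosome 6, 7675169 to 7693254, minus strand, 561 codons) measured 129, 101 and 131 CPM with AP20187 and 91.2, 100.1 and 107 CPM with vehicle. The second AP20187 library lay inside the vehicle range, and the log2 change was 0.27 ± 0.15 (SE; edgeR adjusted p = 0.193).

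**Figure D1:**
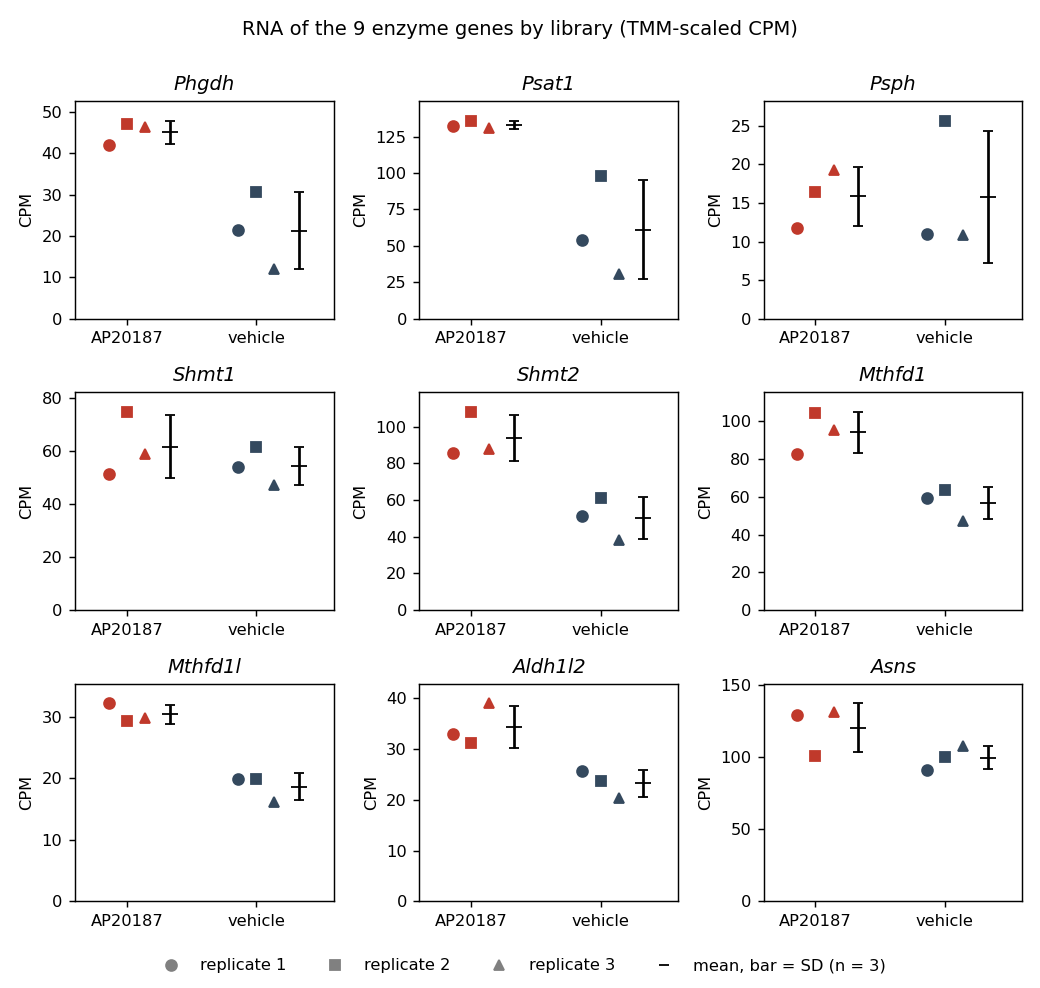
RNA of the 9 enzyme genes, in TMM-scaled CPM on a linear axis from 0, with AP20187 libraries in red on the left and vehicle libraries in blue on the right of each panel, and the mean with its SD (n = 3 each) beside them. The 6 panels of Phgdh, Psat1, Shmt2, Mthfd1, Mthfd1l and Aldh1l2, show no overlap between the groups, and those of Psph, Shmt1 and Asns overlap.

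These calls rested on few libraries. Leaving out vehicle library 1 left 0 of the 6 calls, leaving out vehicle library 3 left 0, and leaving out AP20187 library 1 left 2, all 6 directions staying the same. Over all genes the count of rises was 307, 247 and 388 in those 3 fits, against 906 with all libraries.

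Pairs of enzymes that catalyse related reactions in different compartments, and the steps of the serine pathway, were also compared as ratios of counts within a library, which do not depend on library scaling. The choice of pairs was made with the values in view, 7 ratios were tested, and with 3 libraries against 3 an exact 2-sided permutation test cannot go below 0.1. RNA of Shmt2 over Shmt1 was 1.67, 1.45 and 1.49 with AP20187 and 0.950, 0.990 and 0.807 with vehicle, without overlap (exact permutation p = 0.1, adjusted 0.233). Counts were not corrected for transcript length, 2289 bases for Shmt2 and 2858 for Shmt1, so a ratio of 1 does not mark equal levels. Psat1 over Psph was 11.2, 8.26 and 6.80 with AP20187 and 4.97, 3.82 and 2.87 with vehicle (exact permutation p = 0.1, adjusted 0.233). Phgdh over Psph was 3.57, 2.86 and 2.40 with AP20187 and 1.95, 1.19 and 1.12 with vehicle, also without overlap (exact permutation p = 0.1, adjusted 0.233). In these 3 pairs the AP20187 ratios were the 3 highest, which gives the smallest p the design allows. Each pair sets an enzyme that passed the RNA test over one that did not. The separation thus followed from values already seen, and these p-values give no further support. Psph is the divisor in 2 of the 3, and the share of all gene pairs that separate was not taken. Mthfd1l over Mthfd1 was 0.389, 0.281 and 0.313 with AP20187 and 0.336, 0.312 and 0.340 with vehicle, with a log2 difference of -0.02 (exact permutation p = 1.0). In footprints, Shmt2 over Shmt1 was 2.98, 1.67 and 3.36 with AP20187 and 3.62, 2.66 and 1.91 with vehicle, and the groups overlapped (exact permutation p = 0.9). The footprint ratio of Psat1 over Psph was 6.20, 5.30 and 5.17 with AP20187 and 5.51, 3.97 and 3.94 with vehicle, which overlapped as well (exact permutation p = 0.3). That of Mthfd1l over Mthfd1 was 0.176, 0.0960 and 0.130 with AP20187 and 0.0177, 0.149 and 0.176 with vehicle. These groups also overlapped (exact permutation p = 0.8), and the first vehicle ratio rests on 5 counts of Mthfd1l.

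**Figure D2:**
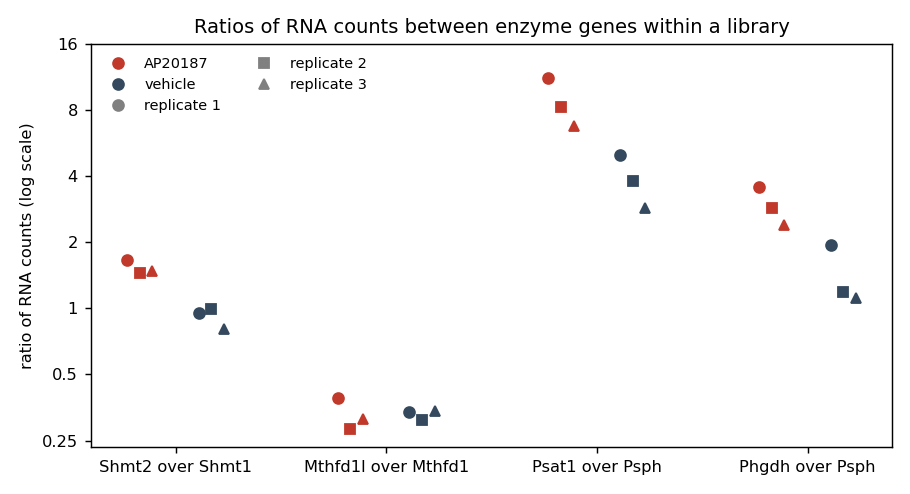
Ratios of RNA counts of 2 enzyme genes within each library, on a log axis, with AP20187 libraries in red to the left of vehicle libraries in blue and symbols for the replicate numbers. Shmt2 over Shmt1, Psat1 over Psph and Phgdh over Psph lie higher in all 3 AP20187 libraries, and Mthfd1l over Mthfd1 overlaps.

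Ribosome footprints of the enzymes did not pass the test in either direction. Of the 9, 8 passed the filter on low counts, 0 of these were called (edgeR quasi-likelihood test), and 0 had an unadjusted p under 0.05, a level reached by 16.5% of the 7041 genes tested. Over all genes 0.937% rose and 1.6% fell, so few calls were made in this assay at all. The 8 log2 changes were all above 0, between 0.26 and 1.02 with a median of 0.54, against a median of 0.03 for all genes. The 3 AP20187 libraries were the 3 highest for Shmt2, Mthfd1, Aldh1l2 and Asns, 4 of the 8, which held for 11.4% of all genes. With the replicate number as a block, 5.01% of genes rose and 5.14% fell, and 0 of the 8 were called by edgeR, the lowest adjusted p being 0.0964 for Psat1.

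Shmt2 had 177, 210 and 168 CPM of footprints with AP20187 and 151, 147 and 88.0 CPM with vehicle, a log2 change of 0.53 ± 0.28 (SE; edgeR adjusted p = 0.379). Mthfd1 had 181, 259 and 202 CPM with AP20187 and 155, 179 and 110 CPM with vehicle, a log2 change of 0.53 ± 0.27 (SE; edgeR adjusted p = 0.373). In both, the AP20187 libraries were the 3 highest, with a small gap to the highest vehicle library. Psat1 had 189, 228 and 149.7 CPM with AP20187 and 166, 139 and 82.5 CPM with vehicle, a log2 change of 0.55 ± 0.31 (SE; edgeR adjusted p = 0.414). AP20187 library 3 lay below the first vehicle library. Asns had 158, 129 and 123 CPM with AP20187, all above the 113, 113 and 117 CPM with vehicle, a log2 change of 0.26 ± 0.24 (SE; edgeR adjusted p = 0.662).

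Psph footprints ranged between 28.9 and 42.9 CPM with AP20187 and between 20.9 and 34.9 CPM with vehicle, which overlapped. Shmt1 had 59.6, 125 and 49.9 CPM with AP20187 and 41.6, 55.1 and 46.1 CPM with vehicle, so that AP20187 library 2 stood apart and library 3 lay in the vehicle range. Mthfd1l had 31.8, 24.8 and 26.3 CPM with AP20187 and 2.74, 26.7 and 19.4 CPM with vehicle. The low value of vehicle library 1 rests on 5 counts and has an exact 95% Poisson interval of 0.889 to 6.39 CPM, which, like the floors, covers counting error only. Aldh1l2 had 13.1, 13.5 and 23.6 CPM with AP20187 and 3.29, 8.73 and 12.04 CPM with vehicle, and vehicle library 1 was again the lowest, with 6 counts. Phgdh had 70, 28 and 10 footprint counts with AP20187 and 5, 5 and 0 with vehicle, or 6.57, 8.59 and 2.66 CPM with AP20187 and 2.74, 2.73 and 0 CPM with vehicle. It did not pass the filter on low counts in footprints and was not tested there.

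**Figure D3:**
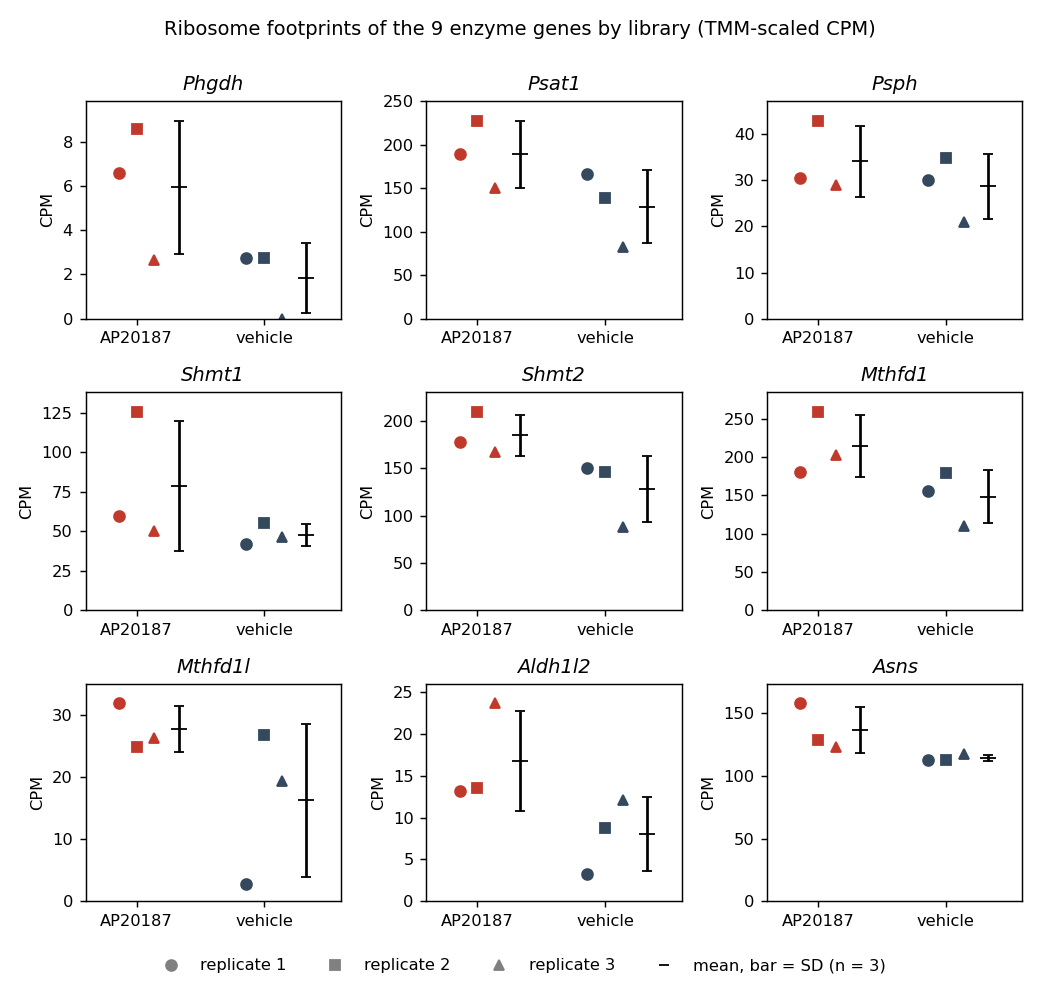
Ribosome footprints of the 9 enzyme genes, in TMM-scaled CPM on a linear axis from 0, with AP20187 libraries in red on the left, vehicle libraries in blue on the right and the mean with its SD (n = 3 each). The AP20187 points lie above all vehicle points for Shmt2, Mthfd1, Aldh1l2 and Asns, and the Phgdh axis ends below 10 CPM.

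Translational efficiency, the change in footprints beyond the change in RNA, was tested as an interaction over all 12 libraries. None of the 9 enzymes passed (edgeR, adjusted p between 0.988 and 1.0) and 0 had an unadjusted p under 0.05, against 0.0% and 4.78% of the 7315 genes tested. The log2 changes ran from -0.62 ± 0.49 for Psat1 to 0.88 ± 0.93 for Phgdh (SE). Shmt2 had -0.42 ± 0.33, Mthfd1 -0.24 ± 0.31 and Asns -0.07 ± 0.26 (SE), and every change of the 9 lay within 2 SE of 0, which does not show that RNA and footprints moved alike. The Phgdh value is fitted with a vehicle library at 0 counts.

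**Figure D4:**
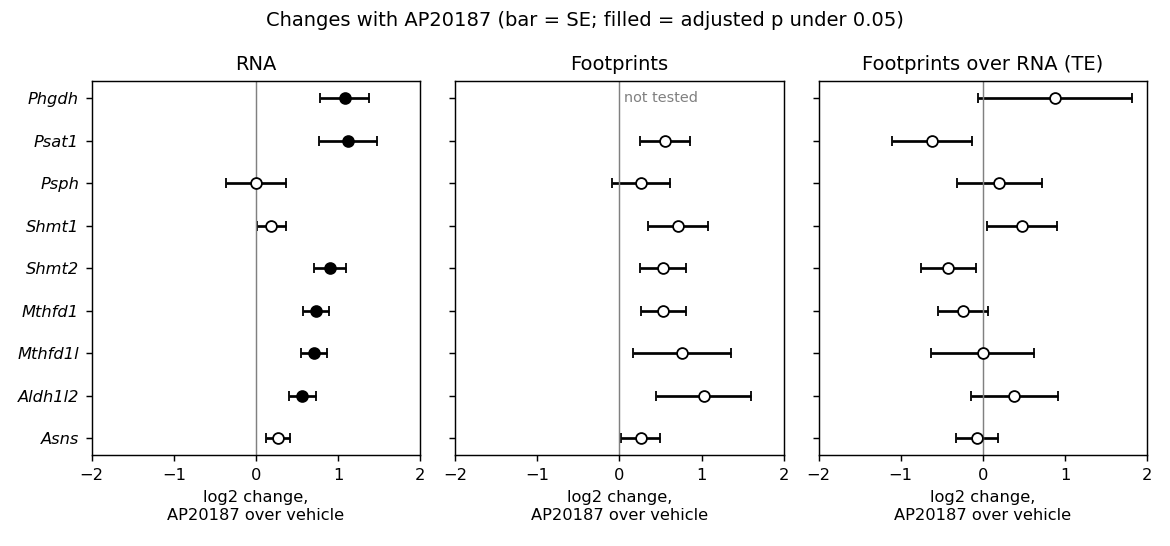
Log2 changes of AP20187 over vehicle for the 9 enzyme genes in RNA, in footprints and in footprints over RNA, with bars for the SE and filled points for an adjusted p under 0.05. The 6 RNA points of Phgdh, Psat1, Shmt2, Mthfd1, Mthfd1l and Aldh1l2 are filled, all between 0.56 and 1.12, no other point is filled, and Phgdh was not tested in footprints.

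Footprints relative to RNA spanned a wide range among the enzymes. As log2 of mean footprint CPM over mean RNA CPM, the median of 7041 genes was -0.08 with AP20187 and -0.07 with vehicle. Mthfd1 lay at 1.19 with AP20187 and 1.38 with vehicle, above 92.1% and 90.4% of genes. Shmt2 lay at 0.98 with AP20187 and 1.36 with vehicle, above 88.2% and 90.0% of genes. These 2 enzymes and Psph, at 1.11 with AP20187 and 0.86 with vehicle, had the highest ratios with AP20187. The ratio is not corrected for length. Coding sequence made up 2805 of 3241 transcript bases for Mthfd1, 675 of 1733 for Psph and 2769 of 6027 for Aldh1l2. The order between genes therefore depends on the regions counted, which are not given. Aldh1l2 lay at -1.04 with AP20187 and -1.54 with vehicle, above 15.8% and 11.0% of genes, and Asns lay near the middle at 0.18 with AP20187 and 0.20 with vehicle.

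Phgdh was the extreme, at -2.93 with AP20187 and -3.55 with vehicle, with 1.76% and 1.29% of genes below it. Among the 9 enzymes and the pathway genes introduced with the lists of neighbouring reactions, 96 genes in all, 15 share over 50% of their 28-base coding windows with other annotated genes. Over all 12 libraries these 15 had a median log2 ratio of -2.01, and the other 81 had a median of 0.21. The lowest 5% of all genes held 7 of the 15 and 0 of the 81. Besides Phgdh the 7 include Gapdh and Pgk1, glycolytic enzymes with 94.3% and 100.0% of windows shared. Eno1 went the other way, with 90.5% of windows shared and a log2 ratio of 3.10. Its ratio rests on means of 0.186 CPM of RNA and 1.02 CPM of footprints with AP20187. With vehicle the means were 0.122 and 1.64 CPM, and Eno1 did not pass the filter on low counts in footprints. Other members share little, 10.5% of windows for Psat1, 8.96% for Shmt2, 0.585% for Mthfd1l and 0 for Psph, Shmt1, Mthfd1, Aldh1l2 and Asns. Aldh1l2 was therefore low in footprints over RNA with no window shared, on a ratio not corrected for length. The window length was chosen after the data had been seen, and the part of shared sequence in the low Phgdh footprints was not tested.

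**Figure D5:**
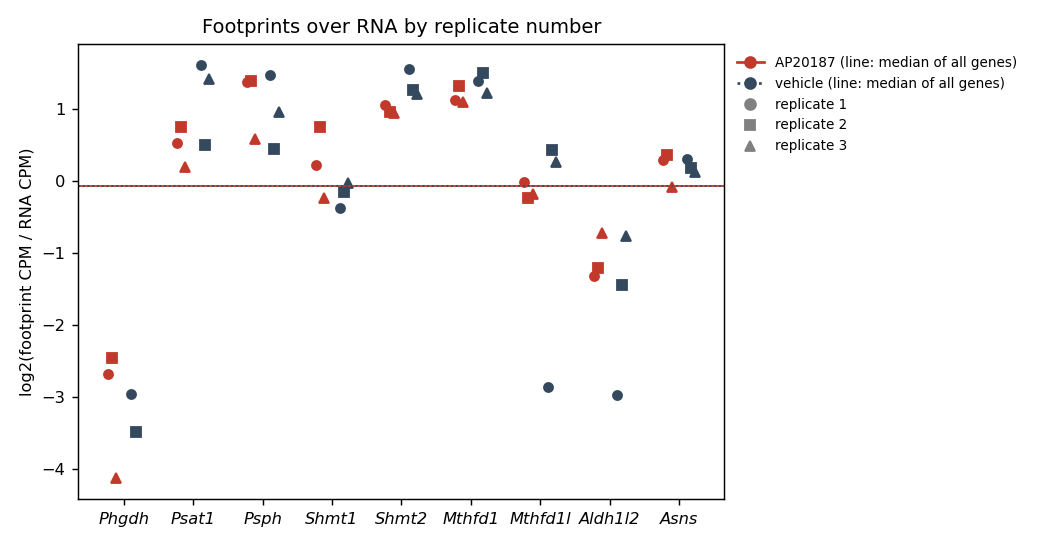
Log2 of footprint CPM over RNA CPM for each replicate number, with AP20187 in red to the left of vehicle in blue for each gene, and lines at the median of all genes (both close to -0.08). Phgdh lies lowest with AP20187, and with vehicle its replicate 2 is the lowest point. Its vehicle replicate 3 is missing because it had 0 footprint counts. Mthfd1l and Aldh1l2 have a low vehicle replicate 1, that of Aldh1l2 level with replicate 1 of Phgdh.

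Levels between genes were compared per kilobase, of transcript for RNA and of coding sequence for footprints, although the counted regions are not given. With AP20187, RNA was highest for Asns (59.6 ± 8.4 CPM per kb; SD, n = 3) and Psat1 (50.9 ± 0.99), whose libraries overlapped, then Shmt2 (41.0 ± 5.4) and Mthfd1 (29.0 ± 3.3). Phgdh (23.9 ± 1.5) overlapped with Shmt1 (21.6 ± 4.2) and Psph (9.15 ± 2.2) with Mthfd1l (8.26 ± 0.42), and Aldh1l2 (5.71 ± 0.68) came last. With vehicle, Asns (49.3 ± 4.0 CPM of RNA per kb) stood clear of the rest, and Psat1 (23.4 ± 13.0), Shmt2 (21.9 ± 5.0), Shmt1 (19.0 ± 2.5), Mthfd1 (17.5 ± 2.6), Phgdh (11.3 ± 4.9) and Psph (9.12 ± 4.9) followed, each overlapping the next. Mthfd1l (5.05 ± 0.60) and Aldh1l2 (3.86 ± 0.44) were again the lowest. In footprints Psat1 led, at 170 ± 35.1 CPM per kb with AP20187 and 116 ± 38.3 with vehicle, before Shmt2 at 122 ± 14.6 with AP20187 and 84.9 ± 23.2 with vehicle, the libraries of these 2 genes overlapping in both groups. Asns, at 81.1 ± 11.1 with AP20187 and 67.9 ± 1.4 with vehicle, overlapped Mthfd1 with AP20187 and Shmt2 with vehicle. Mthfd1 had 76.3 ± 14.4 with AP20187 and 52.8 ± 12.5 with vehicle. Footprints of Mthfd1l, Aldh1l2 and Phgdh stayed under 10 CPM per kb in the mean of either group.

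The cell make-up of the pellets, as marker RNA shows it, differed between the groups beside these changes. In bulk samples, fewer cells of a type and less RNA per cell cannot be told apart. Luminal epithelial markers (10 of 16 listed, such as Krt8 and Epcam) summed to between 7912 and 10127 CPM with AP20187 and between 4910 and 5926 CPM with vehicle, with 7 rising and 1 falling. Basal markers (10 of 10) summed to between 2931 and 4536 CPM with AP20187 and between 5350 and 6107 CPM with vehicle, with 1 rising and 5 falling. Markers of both epithelial types were thus present in every library, and the balance of their RNA was not the same. Footprint sums overlapped for luminal markers (8549 to 12520 CPM with AP20187, 6777 to 9445 CPM with vehicle). They also overlapped for basal markers (2879 to 4536 CPM with AP20187, 4316 to 5756 CPM with vehicle). Fibroblast markers (6 of 10) summed to between 1252 and 1702 CPM with AP20187 and between 3347 and 5827 CPM with vehicle, with 5 falling. Vehicle library 2, the highest vehicle library for Phgdh and Psat1, had the lowest of these vehicle sums, and vehicle library 3, the lowest for both genes, had the highest. Endothelial markers (4 of 8) summed to between 286 and 327 CPM with AP20187 and between 531 and 717 CPM with vehicle, and adipocyte markers (6 of 10) to between 93.2 and 168 CPM with AP20187 and between 314 and 541 CPM with vehicle. Stromal markers thus stood lower with AP20187, while immune markers (4 of 10; 199 to 305 CPM with AP20187, 226 to 461 CPM with vehicle) overlapped. Footprint sums of fibroblast, endothelial, adipocyte and immune markers were all lower with AP20187, without overlap. Schwann markers (6 of 8) summed to between 527 and 802 CPM with AP20187 and between 367 and 438 CPM with vehicle, although 4 of the 6 fell and 1, Sox10, rose. Without vehicle library 1, without vehicle library 3 or without AP20187 library 1, the 7 luminal rises became 4, 2 and 4, and the 5 basal falls became 2 in each case. Without vehicle library 2 the basal falls became 3. The basal rise ended without vehicle library 1 or 3 and became 2 rises without vehicle library 2 or AP20187 library 1, and the luminal falls became 2 without AP20187 library 2. The fibroblast and Schwann counts moved by less than 1.5 times whichever library was left out. No listed marker was at 0 in every library. Set against the summed luminal markers of the same library, the enzymes' RNA overlapped between the groups for 7 of 9. The same share over all genes was not taken. The luminal sum was itself higher with AP20187, so a gene with unchanged CPM falls on this scale. Asns was 13.8, 12.7 and 12.9 per 1000 of luminal marker CPM with AP20187, below 15.4, 16.9 and 21.8 with vehicle. Aldh1l2 was 3.52, 3.95 and 3.85 with AP20187, below 4.34, 4.02 and 4.15 with vehicle, the opposite direction to its rise in CPM. The part of the cell make-up in the RNA changes of the enzymes was not tested beyond these values.

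Genes of the neighbouring reactions were read from the same fits. Not every gene of these lists was analysed. The numbers were 6 of 16 for the ATF4 and eIF2 arm and 15 of 20 for other amino acid synthesis. They were 7 of 15 for carriers, 11 of 19 for folate partners and 6 of 11 for the methionine cycle. Of 33 other known ATF4 targets, 21 were analysed, many of them tRNA synthetases. Among these 21, RNA of 17 rose and 0 fell, with a median log2 change of 0.78. Over all tested genes 12.4% rose and 13.9% fell. The count rising ran between 9, without vehicle library 3, and 17 when single libraries were left out. Slc7a5, the large neutral amino acid carrier, rose to 533 ± 106 CPM with AP20187, against 173 ± 34.2 CPM with vehicle (SD, n = 3), a log2 change of 1.62 ± 0.21 (SE; edgeR adjusted p = 0.0059). Gpt2, the mitochondrial alanine aminotransferase, had 143 ± 10.6 CPM with AP20187 and 57.1 ± 13.0 CPM with vehicle (SD, n = 3), a log2 change of 1.33 ± 0.18 (SE; edgeR adjusted p = 0.0063). Wars and Aars, the tryptophanyl and alanyl tRNA synthetases, rose by 0.72 and 0.73 on the log2 scale. In footprints 3 of the 21 rose and 0 fell, namely Slc7a5, Gpt2 and Aars, with log2 changes of 1.29, 1.31 and 1.14 (edgeR adjusted p = 0.029, 0.0441 and 0.0375). With the replicate number as a block 11 of the 21 rose in footprints, and 0 rose without AP20187 library 1 or without any single vehicle library, which also held for the footprint rises of the lists described next. Hardly any gene was called in those fits. Over all genes 2 rose in footprints without AP20187 library 1, and 0, 0 and 3 without vehicle libraries 1, 2 and 3. Atf4 itself was not analysed here. Of the 6 analysed genes of the ATF4 and eIF2 arm, Gcn1l1, an activator of the kinase GCN2, and Cebpb rose by 0.64 and 0.43. Cebpg fell by 0.44 on the log2 scale. Without vehicle library 3, or without AP20187 library 1, none of these 3 calls passed, and leaving out any of the other libraries ended at least 1 of them.

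Of 15 other amino acid synthesis enzymes, RNA of 8 rose and 4 fell, with a median log2 change of 0.48. The lists share genes, and some of these 8, Gpt2 among them, were also counted with the ATF4 targets. So was Slc7a5 of the carriers below. Gpt, the cytosolic alanine aminotransferase, had 6.79 ± 1.36 CPM with AP20187 and 17.7 ± 0.84 CPM with vehicle (SD, n = 3), a log2 change of -1.38 ± 0.21 (SE; edgeR adjusted p = 0.0070). The cytosolic and mitochondrial alanine aminotransferases thus changed in opposite directions. Without vehicle library 3 the 8 rises became 2, without AP20187 library 1 they became 3, and without vehicle library 1 they became 5. Of 7 carriers, 2 rose and 0 fell, with a median of -0.15. They were Slc7a5 and Sfxn1, the mitochondrial serine carrier, which had 65.7 ± 13.7 CPM with AP20187 and 31.0 ± 8.8 CPM with vehicle (SD, n = 3), a log2 change of 1.08 ± 0.24 (SE; edgeR adjusted p = 0.0163). Without vehicle library 1 or 3 only 1 carrier passed. Slc38a2, a neutral amino acid carrier, missed the threshold at -1.02 ± 0.33 (SE; edgeR adjusted p = 0.0514), and 1 carrier fell by DESeq2 and by limma voom.

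Of 11 partners of the folate cycle, glycine cleavage and thymidylate synthesis, RNA of 3 rose and 0 fell, with a median of 0.20. These were Sardh, mitochondrial sarcosine dehydrogenase, by 1.26, Amt, the aminomethyltransferase of glycine cleavage, by 0.93, and Fpgs, which adds glutamates to folate, by 0.90 on the log2 scale. Without vehicle library 1, vehicle library 3 or AP20187 library 1, 1 of the 3 rises passed. None of the 6 methionine cycle genes passed (edgeR), with a median of -0.10. Of 11 purine synthesis genes, 3 rose and 3 fell, among them Gart, which uses formyl-folate, at 0.61 ± 0.13 (SE; edgeR adjusted p = 0.0152), and Impdh2, of the guanine branch, at -0.61 ± 0.16 (SE; edgeR adjusted p = 0.0286). Without vehicle library 1, or without vehicle library 3, none of the 6 purine calls passed, and without AP20187 library 1 there was 1 rise and no fall. Of 16 glycolytic genes, 5 rose and 0 fell, with a median of 0.44, among them Aldoa, Gapdh and Pkm by 0.59, 0.73 and 0.71 on the log2 scale, and 0 rose without vehicle library 1 or 3, or 2 without AP20187 library 1. Gapdh, Pkm and Impdh2 share over 50% of their coding windows with other genes, so their levels are uncertain like that of Phgdh.

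The genes most like a member were sought among 6469 genes by the root mean square difference of log2 profiles over the 12 libraries, each profile set to the vehicle mean of its assay. For Asns they were Eif3d (0.10015), Psme2 (0.109) and Wdr43 (0.114), against a median of 0.444 over all candidates. For Psat1 they were Fam213a (0.203), Bckdk (0.209) and Rin2 (0.227), against a median of 0.875. For Shmt2 they were Got2 (0.133), Gys1 (0.149) and Rps6ka1 (0.155), against a median of 0.677, Got2 being another gene with most of its coding windows shared (88.1%). The smallest difference was larger for Psat1 than for Asns or Shmt2, and so was the median over all candidates.

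Promoter windows from RefSeq (GRCm38.p6, 250 bases before to 50 after the start) were found for 8 of the 9 enzymes, Psat1 having 2. The letters TGATGNAA, the core of the element bound by ATF4 with C/EBP proteins, were searched on both strands and occur in 3.97% of 32851 windows. Of the 8 enzymes 1 held them, Asns, whose RNA did not pass the test. The E-box CACGTG, in 7.15% of all windows, was in 0 of the 8. The Asns window (chr6:7693160-7693459, minus strand) is shown with the match, which begins 23 bases before the start, in capitals, beside that of Shmt2 (chr10:127522395-127522694, minus strand), the member with the lowest RNA p, which holds no match.
Asns: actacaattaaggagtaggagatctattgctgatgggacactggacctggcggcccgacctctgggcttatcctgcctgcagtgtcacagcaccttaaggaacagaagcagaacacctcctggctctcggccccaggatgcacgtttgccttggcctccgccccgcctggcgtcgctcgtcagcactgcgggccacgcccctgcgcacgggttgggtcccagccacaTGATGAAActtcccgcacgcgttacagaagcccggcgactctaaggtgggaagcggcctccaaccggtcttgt
Shmt2: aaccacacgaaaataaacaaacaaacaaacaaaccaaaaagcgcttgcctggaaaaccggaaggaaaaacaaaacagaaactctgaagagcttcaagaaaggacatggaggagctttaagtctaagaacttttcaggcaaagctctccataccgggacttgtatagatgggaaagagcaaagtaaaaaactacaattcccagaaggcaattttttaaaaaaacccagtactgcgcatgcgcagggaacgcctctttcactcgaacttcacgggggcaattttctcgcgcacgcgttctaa
A match describes these letters in this window only.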

How the data were processed

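The deposited table gives unnormalized counts per gene symbol for 12 libraries, in the authors' own columns. Build mm10 and the tools STAR, Bowtie2, HTSeq, cutadapt and bcl2fastq 1.8.3 are named in the submitters' processing notes. What each tool did, its settings, the region counted, the strand setting and the choice of the 7318 genes are not stated there. All columns matched a labelled library.

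Counts were scaled by TMM, filtered with filterByExpr and tested with edgeR 4.0.16 in R 4.3.3 (quasi-likelihood, 2-sided, Benjamini-Hochberg over all genes tested, threshold 0.05). RNA and footprints were fitted on 6 libraries each, with treatment as the only term, and translational efficiency as the assay by treatment interaction on 12. SE was derived from the F statistic. Alternatives used DESeq2 1.42.0, limma 3.58.1, other scaling factors and filters, a replicate block and single libraries left out. The procedure was tested on simulated data. Gene models and coding sequences are GENCODE M21 (GRCm38).

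Same-numbered AP20187 and vehicle footprint libraries deviated together (r of deviations 0.191, 0.272 and 0.378), so their numbers were taken as pairing them. RNA libraries did not (0.197, -0.0555 and -0.048). The main footprint fit left this pairing out, so its SE and adjusted p do not use it. Same-numbered footprint and RNA libraries also deviated together with AP20187 (0.46, 0.529 and 0.369), and less so with vehicle (0.0444, 0.0843 and 0.345). The main translational efficiency fit treated the 12 libraries as independent, and the block by pellet did not.

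Named genes were all members, from each pathway list up to 3 genes with the smallest RNA p and 2 with the smallest footprint p, the genes most like a member, and Fgfr1 and Wnt1. Phgdh was left out of the likeness search because its footprints were not tested. A gene that met this rule is not reported here. Pgk1, Eno1 and Sox10 were named after their values were seen. Members and lists were chosen with earlier results of these data known.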

Additional observations from a re-analysis of the deposited data

How the results depend on the processing

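Members that rose in RNA numbered 6 with all libraries and between 0 and 5 when single libraries were left out, while DESeq2, limma voom, RLE factors and both other filters gave 6 and upper quartile factors 5. With the replicate block, whose numbers did not pair the RNA libraries, 3 rose (620 of all genes). Shmt2 and Mthfd1 kept their calls except without vehicle library 1 (adjusted p 0.0525 and 0.0545) or 3 (0.0530 and 0.0699), and Mthfd1l also lost its call without AP20187 library 1. Under the block, Phgdh (adjusted p 0.0502), Psat1 (0.0532) and Aldh1l2 lost theirs. Counts of members called in footprints and in translational efficiency were 0 under every alternative run, the block included, although DESeq2 called 213 rises and 315 falls over all footprint genes, and leaving out either vehicle library 1 or 2 left 0. Direction was not stable for values near 0. In translational efficiency it was also not stable for Shmt1, Aldh1l2 and Psph, whose main log2 changes were 0.47, 0.38 and 0.20. The cause was not tested. Leaving out libraries, the log2 RNA change of Psph ran between -0.21 and 0.56. The log2 change in translational efficiency ran between -0.33 and 0.53 for Psph, -0.016 and 0.76 for Shmt1, -0.53 and 0.53 for Mthfd1l, -0.034 and 0.96 for Aldh1l2, and -0.19 and 0.12 for Asns. The TE log2 fold change of Mthfd1l, that is of its translational efficiency, was -0.00 with edgeR, 0.064 with DESeq2, 0.45 with limma voom, 0.062 with RLE factors, 0.0030 with upper quartile factors, 0.05 with the replicate block and 0.17 with the replicate block by pellet. Phgdh, Mthfd1l and Aldh1l2 had under 10 footprint counts in at least 1 vehicle library, so their values there have wide counting intervals.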
